A study of Arabidopsis thaliana with 4 samples.

Results

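Auxin genes were followed in Arabidopsis thaliana endosperm, the nutritive tissue around the embryo, at 4 days after pollination. A gene was taken where its symbol in the array's gene table marks it as a GH3, YUC, Aux/IAA, ARF, SAUR, PIN, PILS, AUX1, LAX, TIR1 or AFB gene, and where it had a value on all 4 arrays. This gave 11 of the 10514 named genes with such values: the conjugating enzyme GH3.3, the biosynthetic enzymes YUC4 and YUC11, and 8 Aux/IAA repressors (IAA15, IAA18, IAA20, IAA29, IAA30, IAA31, IAA33 and IAA34). No transporter, receptor, ARF or SAUR gene was among them, so transport and most of the primary response are not described here.

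Auxin is made from tryptophan in a short path whose last step is carried out by the YUC flavin monooxygenases. Enzymes of the GH3 family join free auxin to amino acids and so lower its active level, and many GH3 genes are themselves switched on by auxin. Aux/IAA proteins hold back the ARF transcription factors, and auxin brings TIR1 or an AFB receptor onto a short degron in them, which leads to their destruction. In the seed, auxin production in the endosperm after fertilisation is known to be needed for endosperm proliferation and for seed coat growth.

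Endosperm was cut by laser from sections of siliques, which are the fruits, giving 3 samples. Each was set against the same RNA, taken from the silique tissue left on a slide after cutting. The endosperm was labelled with Cy3 in replicate 1 and with Cy5 in replicate 3, whereas replicate 2 was measured with both, on 2 arrays. The sources used here give neither the plant accession nor any treatment. They also do not say that the samples came from separate plants, so the p-values may not cover the spread between plants. These p-values rest on the spread between the samples, pooled in part over all probes, and leave out that of the reference RNA.

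All values are log2 ratios of endosperm over the remaining silique tissue, so a value of -1 is a level at 1/2 of that in the remaining tissue. This direction is the likely one, since the numerator is not stated: 7 of 8 measured endosperm markers were higher, and their median lay between 1.36 and 2.09 on the 4 arrays. With the other direction, higher and lower would trade places for every gene. The 1 measured silique wall marker, ALC, lay between -2.59 and -2.14. Of the seed coat markers 1 of 3 was lower and 0 were higher. Of 6 measured photosynthesis probes 3 were lower and 1 was higher, with a median between -0.42 and 0.0037 on the arrays. Over all probes with values on all 4 arrays 25.5% were lower and 32% were higher. The seed coat and photosynthesis counts thus do not settle which tissues were in the samples. Of the embryo markers 0 of 18 were measured, so embryo tissue in the samples could not be checked. The arrays held between 21829 and 23171 values, and the median ratio over all complete probes was 0.11. In these bulk samples, fewer cells of a type and less RNA per cell cannot be told apart.

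Transcripts of GH3.3 and of the repressors IAA31, IAA29, IAA30 and IAA18 were lower in endosperm than in the remaining silique tissue, and those of YUC11 were higher. GH3.3 was 30.0-fold lower, IAA31 and IAA29 were 2.48-fold and 2.06-fold lower, and the other changes were under 1.5-fold. Of the 11 genes, 5 were lower, 1 was higher and 5 did not pass (limma, Benjamini-Hochberg adjusted p under 0.05 over all complete probes). Over all 19449 complete probes 25.5% were lower and 32% were higher, 57.5% in all. The median of the 11 ratios was -0.29, beside 0.11 over all complete probes. Leaving out replicate 2 gave -0.19 (0.12 over all complete probes), and using Cy5 alone gave -0.16 (0.07 over all complete probes). On single arrays, 6 of the 11 genes lay below 0 on all 4, as did 31.3% of all probes, and 1 lay above 0 on all 4 (40.4% of all probes). With 11 genes, neither share was tested against the rest. In a test against a 1.5-fold change only GH3.3, IAA31 and IAA29 passed, as lower. Over all probes 13% passed that test as lower and 12.2% as higher, 25.1% in all. The count of lower genes was 3 without replicate 2, since IAA30 and IAA18 then did not pass. Over all probes the count of lower ones also fell, from 4957 to 3863.

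**Figure D1:**
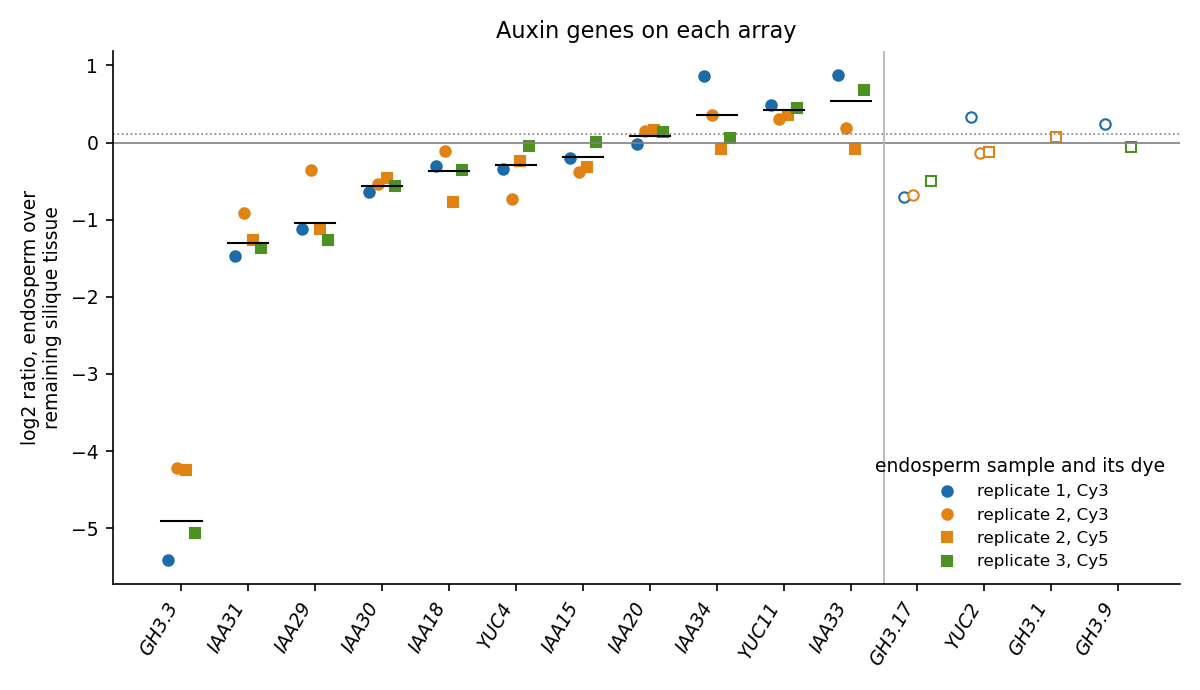
Log2 ratio of endosperm over remaining silique tissue (y axis) for each auxin gene (x axis) on each of the 4 arrays, with the endosperm sample and its dye given by colour and shape. Bars are means over 3 replicates, the dotted line is the median of all probes (0.11), and open symbols right of the grey line are genes without a value on every array. GH3.3 lies far below all the others.

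Auxin synthesis was represented by a pair of YUC genes that differed from each other. YUC11, which is known to be expressed in endosperm, had ratios of 0.48 in replicate 1, 0.31 and 0.36 on the Cy3 and Cy5 arrays of replicate 2, and 0.45 in replicate 3. All 4 arrays placed it above the reference, and the 1.34-fold change (mean log2 ratio 0.42 ± 0.08, SD, n = 3) passed (limma adjusted p = 0.0254). The change was small on the scale of this comparison: 66.9% of all complete probes had a ratio at or below that of YUC11. The call was lost without replicate 2 (limma adjusted p = 0.105), without replicate 3 (limma adjusted p = 0.108), with Cy3 alone (0.40, limma adjusted p = 0.0916) and when arrays were centred on their medians (0.33, limma adjusted p = 0.058). It was also lost in a test against a 1.5-fold change. The Cy3 arrays alone leave out replicate 3 and the Cy5 arrays alone replicate 1, so dye and replicate cannot be told apart there.

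YUC4, known for its role with YUC1 in flowers and embryos, had ratios of -0.34 in replicate 1, -0.73 and -0.24 on the Cy3 and Cy5 arrays of replicate 2, and -0.04 in replicate 3. It lay below the reference on all 4 arrays but did not pass, with a mean of -0.29 ± 0.23 (SD, n = 3; limma adjusted p = 0.124). Within each array YUC11 had the higher ratio of the pair, by 0.82 in replicate 1, 1.04 and 0.60 in replicate 2 and 0.49 in replicate 3. This difference is a description, since the pair was set side by side with its values known. YUC2, whose role in floral organs overlaps with that of YUC4, had a value on 3 arrays: 0.33 in replicate 1, and -0.14 and -0.12 on the Cy3 and Cy5 arrays of replicate 2. Its arrays were on both sides of 0.

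Auxin conjugation was represented by GH3.3, which encodes an acyl-amido synthetase that links auxin to amino acids such as aspartate. Its ratios were -5.41 in replicate 1, -4.22 and -4.25 on the Cy3 and Cy5 arrays of replicate 2, and -5.07 in replicate 3. Both dyes gave nearly the same value for replicate 2, a difference of -0.03, while the replicates were further apart. The mean was -4.90 ± 0.61 (SD, n = 3), with an adjusted p of 0.000125 (limma). Only 3 of the 19449 probes had a lower mean ratio. Its SD was larger than that of 93.3% of probes, and even its least negative array lay 2.75 below the most negative array of any other auxin gene measured on all 4 arrays. The silique wall marker ALC was also low on every array (-2.59 to -2.14), and the part that silique wall tissue in the reference plays in the ratio of GH3.3 was not tested.

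The other GH3 genes had values on some arrays only, and the sources used here do not state why cells are empty. GH3.17, whose enzyme prefers glutamate as the amino acid, had ratios of -0.71 in replicate 1, -0.68 on the Cy3 array of replicate 2 and -0.50 in replicate 3. Where probes with values in at least 2 replicates were fitted, with 1 array standing for replicate 2, its mean was -0.63 ± 0.11 (SD, n = 3), which passed (limma adjusted p = 0.00679). GH3.17 was thus lower in endosperm, at ratios far closer to 0 than those of GH3.3. Replicates 1 and 2 carried Cy3 here and only replicate 3 carried Cy5, so a dye effect does not cancel in this mean. GH3.9, known from root growth, was at 0.25 in replicate 1 and -0.06 in replicate 3, GH3.1 had the single value of 0.08 on the Cy5 array of replicate 2, and GH3.4 had none. Across the family the ratios therefore ranged from far below the reference to near it. GH3 genes resemble each other in sequence, and cross-hybridisation between them was not measured.

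The 8 Aux/IAA genes were split between genes lower in endosperm (4) and genes that did not pass (4), and 0 were higher. Over all probes 25.5% were lower, 32% were higher and 57.5% were called, so the share called among the 8 was near that of all probes. Their median ratio was -0.28. The lowest was IAA31, with -1.47 in replicate 1, -0.91 and -1.27 on the Cy3 and Cy5 arrays of replicate 2, and -1.37 in replicate 3. All arrays were well below 0, with a mean of -1.31 ± 0.20 (SD, n = 3; limma adjusted p = 0.000616), and 10.2% of all probes lay at or below it. IAA29, known as a target of the PIF factors in shade, had ratios of -1.12 in replicate 1, -0.36 and -1.13 on the Cy3 and Cy5 arrays of replicate 2, and -1.26 in replicate 3. Here 1 array stood apart from the other 3, and the mean was -1.04 ± 0.27 (SD, n = 3; limma adjusted p = 0.00193).

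IAA30, a target of the embryo regulator LEC2, was steadier, with -0.64 in replicate 1, -0.54 and -0.47 on the Cy3 and Cy5 arrays of replicate 2, and -0.56 in replicate 3. Its mean of -0.57 ± 0.07 (SD, n = 3) is a 1.48-fold lower level (limma adjusted p = 0.00834). IAA18, which acts in embryo patterning and lateral root formation, had -0.31 in replicate 1, -0.12 and -0.76 on the Cy3 and Cy5 arrays of replicate 2, and -0.36 in replicate 3. The 2 arrays of the same RNA were thus further apart than the replicates were. The mean of -0.37 ± 0.07 (SD, n = 3; limma adjusted p = 0.0388) rests on averaging them first, and with the arrays kept apart and replicate 2 as a random block IAA18 did not pass (limma adjusted p = 0.0754). It also did not pass without replicate 2 (limma adjusted p = 0.219), without replicate 3 (limma adjusted p = 0.136) or on the Cy3 arrays alone, which also lack replicate 3 (-0.21, limma adjusted p = 0.339).

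The other Aux/IAA genes did not pass. IAA33, which lacks the degron and has been described in root stem cells, was the highest of the family, with 0.88 in replicate 1, 0.19 and -0.08 on the Cy3 and Cy5 arrays of replicate 2, and 0.68 in replicate 3. Its mean of 0.54 ± 0.43 (SD, n = 3) did not pass (limma adjusted p = 0.0507), and it passed as higher without replicate 2 (0.78, limma adjusted p = 0.0228). IAA34, which acts in the apical hook, had 0.87 in replicate 1, 0.35 and -0.08 on the Cy3 and Cy5 arrays of replicate 2, and 0.06 in replicate 3. Both arrays with Cy3 were above both with Cy5, and its mean was 0.35 ± 0.44 (SD, n = 3; limma adjusted p = 0.16). Replicate 1 carried much of that mean, which was 0.098 without it. IAA15 had a mean of -0.18 ± 0.18 and IAA20 of 0.09 ± 0.10 (SD, n = 3 each), with limma adjusted p of 0.271 and 0.553. IAA20 thus lay close to the median of all probes.

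IAA20, IAA30 and IAA31 belong to 1 subgroup of the family, and their ratios differed within every array. IAA31 was below IAA20 by -1.45 in replicate 1, -1.06 and -1.43 in replicate 2 and -1.50 in replicate 3, a mean difference in log2 ratio of -1.40 ± 0.13 (SD, n = 3). IAA30 was below IAA20 by a mean of -0.66 ± 0.04 (SD, n = 3), with all 4 arrays between -0.70 and -0.62. These differences are given without a test, since the genes were chosen with their values known. By textbook knowledge IAA15, IAA18 and IAA29 carry the degron that the auxin receptors bind, and it is altered in IAA31 and missing in IAA20, IAA30, IAA33 and IAA34. Of those with a degron 2 of 3 were lower, and of those without a standard one 2 of 5 were lower, beside 25.5% of all probes. With so few genes nothing is read from this division, except that each side held genes lower in endosperm.

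**Figure D2:**
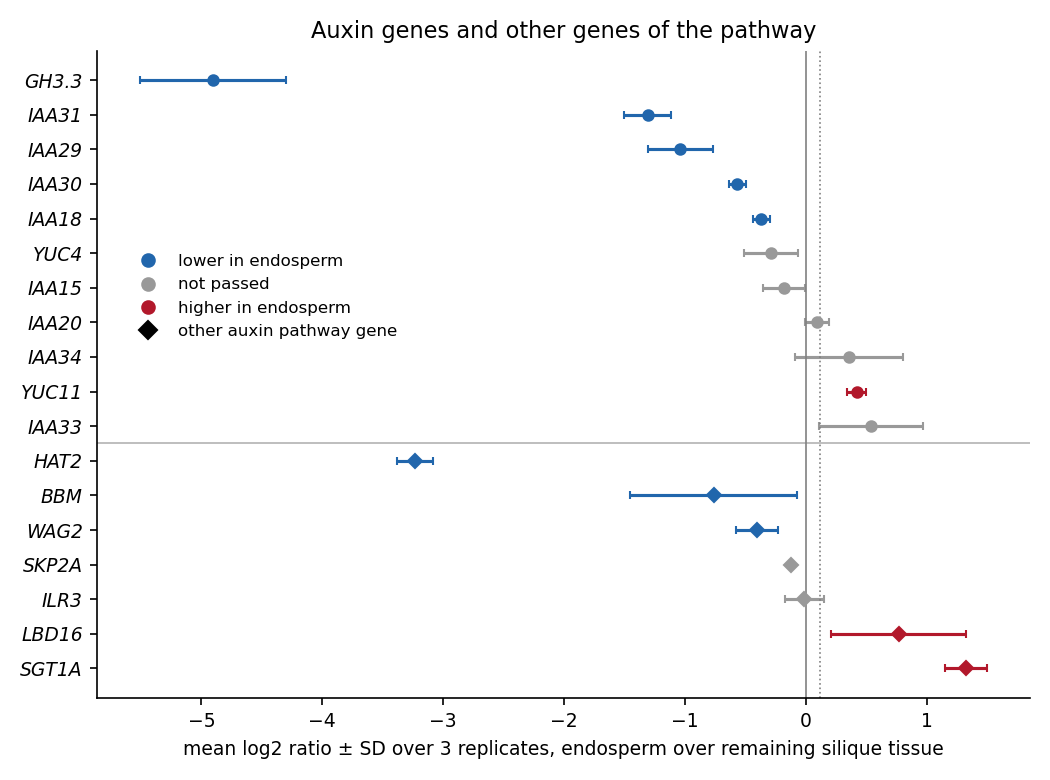
Mean log2 ratio of endosperm over remaining silique tissue with its SD over 3 replicates (x axis) for the auxin genes (circles, above the grey line) and for other genes of the auxin pathway (diamonds, below it). Colour gives the limma call, and the dotted line is the median of all probes (0.11). GH3.3 (-4.90) and HAT2 (-3.23) stand far to the left of the other genes.

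The dye swap of replicate 2 shows how well single arrays fixed these ratios. Over all complete probes the difference between the Cy5 and the Cy3 array had an SD of 0.42 and a median size of 0.19. GH3.3, IAA20, YUC11, IAA15 and IAA30 differed by between -0.03 and 0.07. IAA29 differed by -0.77 and IAA18 by -0.65, which is more than in 94.5% and 91.9% of all probes, and YUC4 differed by 0.49 in the other direction. IAA34 (-0.44), IAA31 (-0.36) and IAA33 (-0.27) also had the lower ratio where endosperm carried Cy5. In all, 5 of the 11 genes had the higher ratio with Cy5. On the Cy5 arrays alone IAA34 was at -0.01, against 0.61 on the Cy3 arrays alone.

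**Figure D3:**
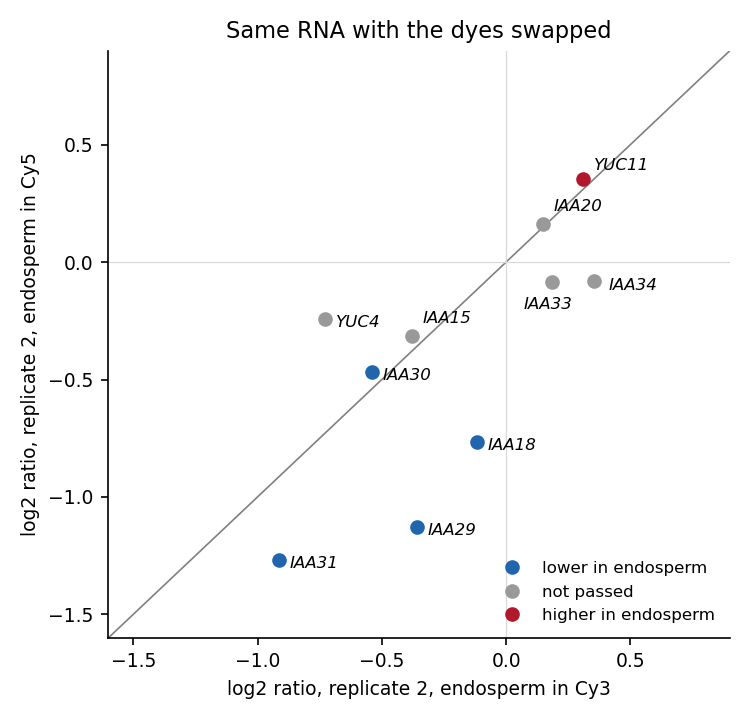
Log2 ratio of endosperm over remaining silique tissue for replicate 2 with endosperm in Cy3 (x axis) and in Cy5 (y axis), where both arrays held the same RNAs. Each point is 1 auxin gene, coloured by its limma call, and the line marks equal values. GH3.3 lies outside the range shown, at -4.22 and -4.25. IAA29 and IAA18 lie furthest below the line.

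Other genes of the pathway were then examined from lists of auxin synthesis, inactivation, transport, perception and responsive genes. Of 136 listed genes 7 were measured on all 4 arrays. Their median ratio was -0.12, and 3 passed as lower (25.5% of all probes did), 2 passed as higher (32% of all probes) and 2 did not pass. With 57.5% of all probes called, these counts are no result about the pathway. No listed biosynthetic gene was measured (0 of 22). HAT2, an auxin-induced homeodomain gene, was the lowest, with -3.40 in replicate 1, -3.12 and -3.15 on the Cy3 and Cy5 arrays of replicate 2, and -3.15 in replicate 3. It was 9.39-fold lower, at -3.23 ± 0.15 (SD, n = 3; limma adjusted p = 0.000125), and 1.26% of all probes lay at or below it.

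ARL, a relative of the auxin-induced growth gene ARGOS, was low as well where it had values, with -2.02 and -2.26 on the Cy3 and Cy5 arrays of replicate 2 and -2.41 in replicate 3. In the fit of probes with values in at least 2 replicates it was 4.84-fold lower (limma adjusted p = 0.000754). A dye effect does not cancel there, since replicate 1 held no value for ARL. LBD16, a target of ARF7 and ARF19 in lateral root formation, went the other way, with 1.297 in replicate 1, 1.01 and 0.64 on the Cy3 and Cy5 arrays of replicate 2, and 0.18 in replicate 3. It was higher at 0.77 ± 0.56 (SD, n = 3; limma adjusted p = 0.0286), with both Cy3 arrays above both Cy5 arrays. Its call was lost without replicate 1 (0.50, limma adjusted p = 0.0734), with Cy5 alone, which also lacks replicate 1 (0.41, limma adjusted p = 0.0919), or without replicate 2 (limma adjusted p = 0.0939). The embryo regulator BBM was lower at -0.76 ± 0.69 (SD, n = 3; limma adjusted p = 0.0486), but its value leaned on replicate 1: without it the mean was -0.38 (limma adjusted p = 0.0756). BBM lost its call under 5 of 14 alternatives, some of which kept replicate 1. Among these were 4 arrays as 4 samples (limma adjusted p = 0.052) and the fit of probes with values in at least 2 replicates (limma adjusted p = 0.0592). The auxin-responsive genes measured thus included members on both sides of the reference.

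Of the genes for auxin perception, SGT1A, a co-chaperone related to the one that acts with the TIR1 complex, was 2.50-fold higher at 1.32 ± 0.18 (SD, n = 3; limma adjusted p = 0.000543). The F-box gene SKP2A did not pass, at -0.12 ± 0.02 (SD, n = 3; limma adjusted p = 0.41). WAG2, a kinase that acts on PIN auxin exporters, was lower at -0.40 ± 0.17 (SD, n = 3; limma adjusted p = 0.0398). That call was lost without replicate 2 (limma adjusted p = 0.117), without replicate 3 (limma adjusted p = 0.213) and with Cy3 alone, which also lacks replicate 3 (-0.26, limma adjusted p = 0.237). PID2, of the same kinase family, had values between 0.08 and 0.52 on 3 arrays and did not pass in the fit of probes with values in at least 2 replicates (limma adjusted p = 0.25). ILR3, a bHLH factor found through resistance to an auxin conjugate, was at -0.01 ± 0.16 (SD, n = 3; limma adjusted p = 0.936). UGT74D1, an auxin glucosyltransferase, had values between -0.30 and -0.03 on 3 arrays and did not pass in the same wider fit (limma adjusted p = 0.357). UGT84B1, also on the inactivation list, had a single value, 0.014 in replicate 3.

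**Figure D4:**
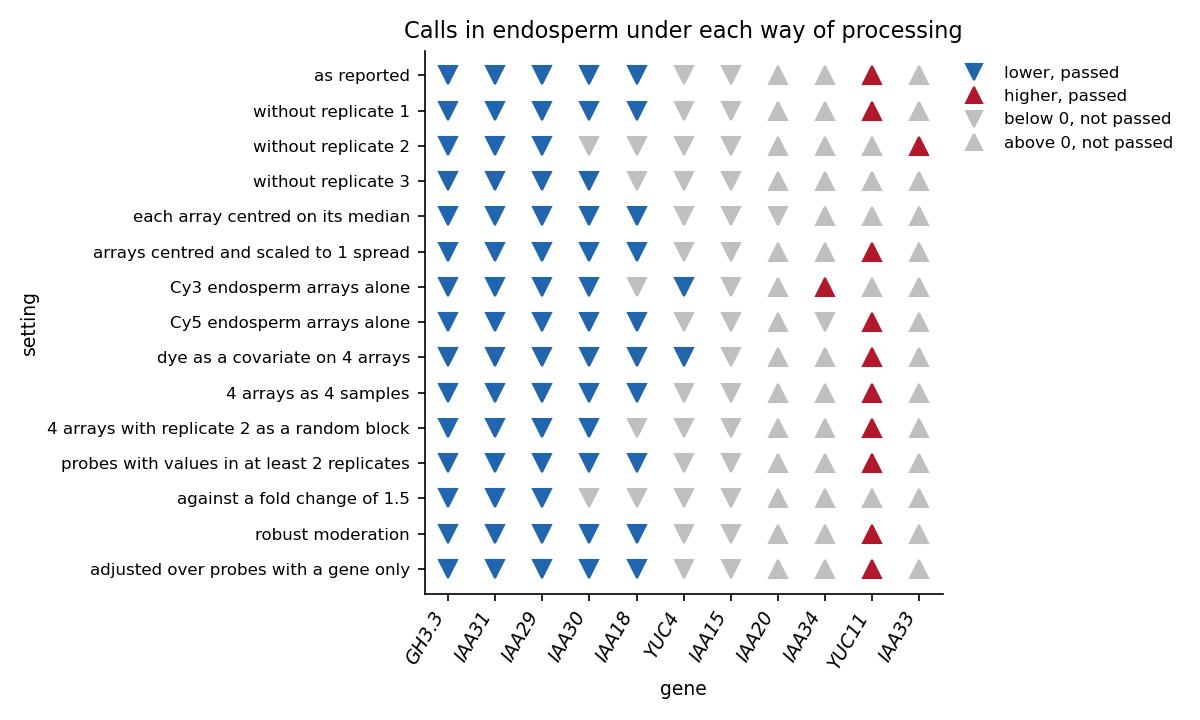
Call of each auxin gene (x axis) under the reported processing and 14 alternatives (y axis), where a triangle points down for a ratio below 0 and up for one above 0, and colour marks ratios that passed limma at an adjusted p under 0.05. GH3.3, IAA31 and IAA29 passed as lower under all 14 alternatives, and YUC11 lost its call under 5.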

How the data were processed

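The deposited table holds 1 value per probe and array, taken here as a log2 ratio because the values have both signs and a mean near 0 on each array. Per the labels' protocols, RNA was amplified by in vitro transcription in both channels and coupled to Cy dyes. Amplification can change the proportions between transcripts. The sources used here do not give the background correction, the normalization, the filter behind empty cells, the numerator or the log base, and another base would change all folds.

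Of 26912 probes 14539 had a gene name, each with 1 gene, 0 with several and 12373 with none. Of the named probes 14485 matched the RefSeq genes of TAIR10.1. RefSeq gives 92 genes a symbol of these auxin families, 16 of these had a named probe, and 11 had values on all 4 arrays (68.8%, beside 72.3% of all probes). Intensities were not used here, so dim spots were not filtered, and precision is limited by the number of arrays. No sequences were used.

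The arrays of replicate 2 were averaged, and limma 3.58.1 (R 4.3.3) tested the mean of 3 replicates against 0 (eBayes, two-sided, Benjamini-Hochberg over 19449 probes). The fit was also run on simulated independent values with few changed probes, which checks the fit itself and not the calls made here. A dye effect cancels in this mean, but need not cancel where a probe lacks an array. Alternatives left out a replicate, centred or scaled arrays, used 1 dye, added the dye or a random block (correlation 0.36 by moments), relaxed the filter to 2 replicates, or changed the test. Every auxin gene could be named. Per-array values are given for GH3, YUC and called genes and for the family extremes. From each pathway list up to 4 passing genes are named, or the 2 largest ratios where none passed, and SKP2A and genes without all values were added to complete small counts. The genes and lists were chosen with earlier results of these data known.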

Additional observations from a re-analysis of the deposited data

How the results depend on the processing

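GH3.3, IAA31 and IAA29 were lower and past the threshold under all 14 alternatives, with ranges of -5.24 to -4.65, -1.42 to -1.19 and -1.20 to -0.74, as were HAT2 and, upwards, SGT1A. Leaving out 1 replicate gave 3 to 5 lower and 0 to 1 higher auxin genes, and 1 to 2 higher genes on the other pathway lists. Calls over all probes moved as well, to 56.6%, 43.7% and 50.2% without replicates 1, 2 and 3 (57.5% with all), and the drops are to be read against that. In the same order 6157, 4627 and 5332 probes were higher (6231 with all), and 4855, 3863 and 4428 were lower (4957 with all). The median ratio of the auxin genes lay between -0.38 and -0.16 over the alternatives that could change it. The median over all probes moved too: it was 0.02 with centring, where the auxin median was -0.38. On the Cy5 arrays alone it was 0.07, where the auxin median was -0.16. The 1 gene higher without replicate 2 was IAA33, and 0 were higher without replicate 3. Centring each array on its median left 0 auxin genes higher, as YUC11 did not pass. Of all 19449 complete probes 5415 were higher with centring, beside 6231 as reported, and 5552 were lower, beside 4957. Against a fold change of 1.5, 3 auxin genes were lower and 0 higher (13% and 12.2% of all probes), and of the other pathway genes 1 was higher and 1 lower. On the Cy5 arrays alone 1 other pathway gene was higher, and over all probes 5864 of 19449 were. Ratios near 0 changed sign: IAA20 with centring (-0.0018), IAA34 on the Cy5 arrays alone (-0.011), and ILR3 without 1 replicate (-0.086 to 0.072), on the Cy5 arrays alone (0.12), with a dye term (0.023), with 4 arrays as 4 samples (0.023) and with replicate 2 as a random block (0.0064). YUC4 passed as lower with Cy3 alone (-0.53) and with a dye term (-0.34), and IAA34 as higher on the Cy3 arrays alone. The fit with a dye term counted the 2 arrays of replicate 2 as separate samples and called 66.7% of all probes (57.5% as reported). With replicate 2 as a random block YUC4 did not pass (limma adjusted p = 0.114). The causes of these changes were not tested, and the fits that left out a replicate or a dye also held fewer samples. No paired analysis was possible because all samples form 1 group against 1 common reference.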

Other observations

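IAGLU, named in the gene table as an auxin glucosyltransferase, stood on none of the lists and was found after the data were seen. It was lower in endosperm, with -1.66 in replicate 1, -1.54 and -1.49 on the Cy3 and Cy5 arrays of replicate 2, and -1.47 in replicate 3. Its 4 arrays were close together, and the mean was -1.55 ± 0.10 (SD, n = 3), or 2.92-fold lower (limma adjusted p = 0.000272). It also passed against a fold change of 1.5 (limma adjusted p = 0.0015).

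Protein-coding genes next to the auxin genes in the order of TAIR10.1 were looked up, and 10 neighbours of 8 of the genes were measured. The neighbour of GH3.3, AT2G23160, was at -0.01 ± 0.12 (SD, n = 3), far above GH3.3 at -4.90. IAA18, at -0.37, lies beside IQD27, a calmodulin-binding gene at 2.56 ± 0.26 (SD, n = 3; limma adjusted p = 0.000143). IAA30, at -0.57, lies beside AT3G62110 at 1.02 ± 0.13 (SD, n = 3; limma adjusted p = 0.00111), and IAA33, which did not pass, lies beside AT5G57410 at 1.97 ± 0.44 (SD, n = 3; limma adjusted p = 0.000496). YUC11 lies between SKP2A (-0.12) and AT1G21440 (0.0009), neither of which passed. IAA15, which did not pass at -0.18, lies between AT1G80380, which was lower at -0.59 ± 0.16 (SD, n = 3; limma adjusted p = 0.00991), and AT1G80400, which did not pass at -0.22. The measured neighbours of IAA29 and IAA34 did not pass, at -0.06 and -0.45. None of the 5 genes lower in endosperm had a measured neighbour that was lower too, while IAA31 had no measured neighbour. Over all probes 25.5% were lower, so with so few neighbours nothing is read from this.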
